A study of Mus musculus with 6 samples.

Results

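The plexins are a family of 9 mouse genes that encode single-pass membrane receptors, and all 9 were found by symbol among the 27179 identifiers of the deposited count table: Plxna1, Plxna2, Plxna3 and Plxna4 of class A, Plxnb1, Plxnb2 and Plxnb3 of class B, Plxnc1 and Plxnd1. The rule takes the whole gene family and uses no measured value. Plxnb2 is in addition an mRNA described as a target of Trim71. The study sequenced oligo(dT)-selected RNA from mouse embryonic stem cells of the male ES-E14TG2a background. One group carried FLAG-tagged Trim71 with the hydrocephalus-linked amino-acid change R783H, and the other carried FLAG-tagged wild-type Trim71 (WT), with 3 libraries each, lettered A, B and C. All cells, controls included, thus carried the FLAG tag, and all were grown on gelatin in 2i + Lif medium, which contains the GSK3 inhibitor CHIR99021, the MEK inhibitor PD0325901 and leukemia inhibitory factor. No age or time point applies. The labels do not say whether a letter stands for a separate clone, culture or library preparation, so the p-values measure the spread between these libraries, which may be technical.

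Plexins are the receptors of semaphorins, secreted or membrane-bound guidance proteins that steer growing axons, endothelial cells and migrating cells. Semaphorin binding brings plexins together and activates the GTPase-activating domain of their cytoplasmic part, which acts on Ras-like GTPases such as Rap1, while the GTPases Rnd1 and Rac1 bind next to it. Class A plexins mostly receive secreted class 3 semaphorins through a neuropilin co-receptor, class B plexins bind class 4 semaphorins directly and recruit guanine nucleotide exchange factors through their C-terminus, Plxnc1 binds Sema7a and Plxnd1 binds Sema3e. Plxnb2 is needed for closure of the neural tube and for the proliferation of neural progenitors, and has also been described as a receptor of progranulin and of angiogenin. Trim71 is an RNA-binding protein of stem cells and early embryos that lowers the level or translation of its target mRNAs, many of them through the 3′ untranslated region (UTR).

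The libraries held 27807385 to 29079670 counts in R783H and 20894277 to 25174121 in WT, so every R783H library was deeper. Pairs of libraries differed by more than sampling noise within groups, with a chi-square per degree of freedom of 1.95 to 11.6, and R783H B stood furthest from its group. Trim71 mRNA itself had 152, 129 and 150.5 CPM in R783H A, B and C, and 131, 131 and 159 CPM in WT A, B and C, where CPM is the count scaled to a common library size, so the groups overlapped. Markers of pluripotent cells summed to 5768 to 5843 CPM in R783H and 6095 to 6181 CPM in WT, with 7 of 7 above detection, and 3 of these 7 fell and 1 rose. Fibroblast markers summed to 3.86 CPM at most, with 2 of 7 at or below 3 counts in every library. Neural markers summed to 83.9 to 91.4 CPM in R783H and 117 to 122 in WT, and Dcx had no count. Of the 5 neural markers tested 2 rose and 2 fell. Endoderm markers summed to 7.58 to 8.58 against 3.47 to 5.69 CPM, and 2 of the 3 tested rose. Endothelial markers summed to 99.6 to 109.9 against 91.3 to 93.0 CPM, almost all of it Pecam1, which stem cells also express, with Emcn at 0. Of the 3 tested 1 rose and 1 fell, beside 33.5% higher and 30.9% lower over all tested genes. The part of these other cells in the plexin values was not tested.

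The windows around the annotated starts are printed for Plxnb2, Plxna3 and Plxnd1. Plxnb2 has the highest level and 2 annotated starts, Plxna3 rose with it, and Plxnd1 fell. Each window is 300 bases long, from 250 before to 50 after the start. It is read 5′ to 3′ on the gene's strand from RefSeq, build GRCm38.p6. Capitals mark the GC box, GGGCGG on either strand, the short motif bound by factors of the Sp family. The outer Plxnb2 start lies at chr15:89180739-89181038 and the inner one at chr15:89173902-89174201, both on the minus strand, Plxna3 at chrX:74328816-74329115 on the plus strand, and Plxnd1 at chr6:115994956-115995255 on the minus strand.
Plxnb2 outer start: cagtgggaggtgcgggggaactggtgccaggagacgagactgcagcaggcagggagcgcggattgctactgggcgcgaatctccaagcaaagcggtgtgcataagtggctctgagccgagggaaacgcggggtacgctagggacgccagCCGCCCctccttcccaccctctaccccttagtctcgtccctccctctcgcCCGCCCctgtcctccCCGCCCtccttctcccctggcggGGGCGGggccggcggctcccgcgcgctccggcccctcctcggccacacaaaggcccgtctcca
Plxnb2 inner start: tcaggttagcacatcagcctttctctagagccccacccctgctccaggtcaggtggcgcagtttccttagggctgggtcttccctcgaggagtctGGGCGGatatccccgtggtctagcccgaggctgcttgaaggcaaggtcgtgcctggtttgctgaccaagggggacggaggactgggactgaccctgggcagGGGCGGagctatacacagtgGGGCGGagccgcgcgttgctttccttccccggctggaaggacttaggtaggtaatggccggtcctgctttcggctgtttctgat
Plxna3: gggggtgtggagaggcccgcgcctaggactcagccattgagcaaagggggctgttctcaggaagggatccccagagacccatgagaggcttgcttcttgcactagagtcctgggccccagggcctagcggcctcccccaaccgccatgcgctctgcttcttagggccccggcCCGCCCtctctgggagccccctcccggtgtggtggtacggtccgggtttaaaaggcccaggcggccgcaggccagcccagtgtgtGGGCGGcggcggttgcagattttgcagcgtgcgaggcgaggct
Plxnd1: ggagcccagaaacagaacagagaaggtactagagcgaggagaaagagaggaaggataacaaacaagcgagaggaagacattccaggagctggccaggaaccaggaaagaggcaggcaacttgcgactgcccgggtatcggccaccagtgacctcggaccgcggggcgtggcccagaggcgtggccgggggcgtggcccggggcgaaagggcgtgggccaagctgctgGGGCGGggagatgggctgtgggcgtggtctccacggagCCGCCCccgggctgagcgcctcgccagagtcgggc
The outer Plxnb2 window holds 4 GC boxes, the inner one 3, and those of Plxna3 and Plxnd1 2 each. Of the 9 plexins 7 have a window in the source used here. Plxna4 and Plxna1, the second most abundant plexin, have no window there. Plxna2 (2 boxes), Plxnb1 (5) and Plxnc1 (4) hold the motif too, whereas the Plxnb3 window has none. Among all 32851 windows of this length 35.7% hold it. Windows of plexins that rose, fell or were not called thus share this motif, and 0 of the 8 plexin windows hold CCAAT, which 37.4% of all windows hold on either strand. The TATAAA letters, found in 13.6% of windows, and the E-box letters CACGTG, found in 7.15%, were likewise in 0 of the 8 on either strand. The plexin windows ran from 61.7% GC (inner Plxnb2 start) to 74.7% GC (Plxnb1), against a median of 52.7% over all windows. The part of base content in these motif counts was not tested. The motif letters describe the windows and do not show binding.

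Stem cells expressed chiefly 2 plexins. Levels of different genes are given as CPM per kb of the longest protein-coding transcript, since a longer transcript yields more reads. Plxnb2 stood at 33.9 ± 0.369 CPM per kb in WT and 56.3 ± 2.08 in R783H (SD, n = 3 each), and Plxna1 at 25.0 ± 0.169 and 39.3 ± 0.472. Plxnb1 and Plxna3 followed at 2.81 ± 0.189 and 1.64 ± 0.0660 CPM per kb in WT, so that Plxna1 was 8.89-fold above the third plexin. Below these came Plxnd1 (0.413 ± 0.0346 CPM per kb in WT), Plxna2 (0.288 ± 0.0585), Plxnc1 (0.219 ± 0.0631) and Plxna4 (0.070 ± 0.0162), and last Plxnb3 with 0.0205 ± 0.0226. In WT the ranges of neighbours in this order overlapped just for Plxna2 and Plxnc1. In R783H the order changed at 2 places: Plxna3 (2.68 ± 0.126 CPM per kb) stood beside Plxnb1 (2.46 ± 0.100), with overlapping ranges, and Plxna2 (0.390 ± 0.0175) stood above Plxnd1 (0.296 ± 0.00440), without overlap.

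**Figure D1:**
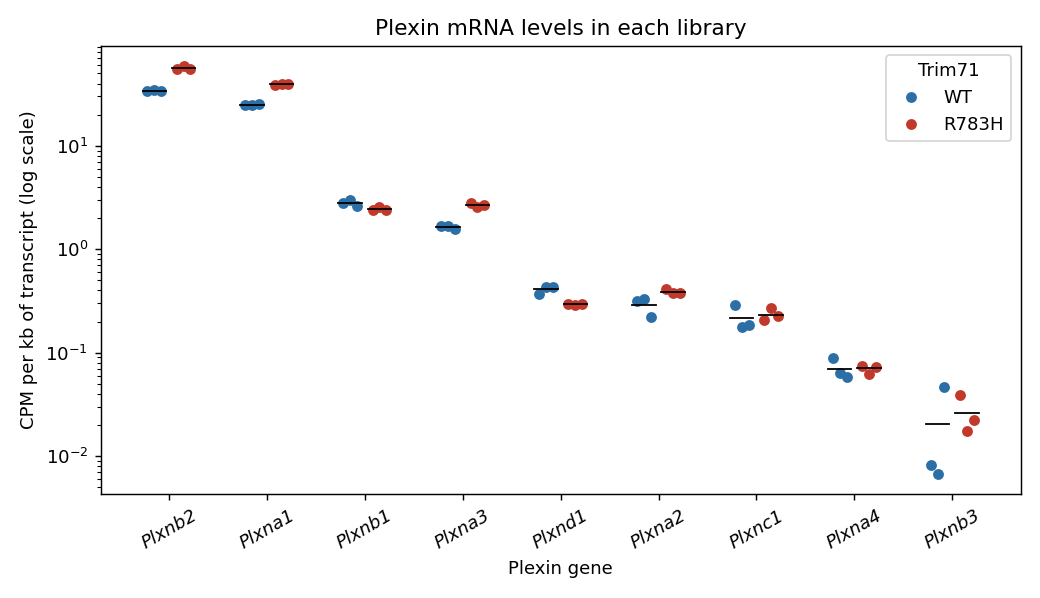
Level of the 9 plexin mRNAs in each library, as CPM per kb of transcript on a log axis. Points are single libraries, black lines are group means, blue is WT and red is R783H. Plxnb2 and Plxna1 stand about an order of magnitude above all others, and both are higher in every R783H library.

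Plxnb2, Plxna1, Plxna3 and Plxna2 were higher in R783H than in WT, Plxnb1 and Plxnd1 were lower, and Plxna4 and Plxnc1 were not called. Of the 9 plexins 8 passed the filter on low counts, and 6 passed an adjusted p of 0.05 (edgeR, quasi-likelihood test, Benjamini-Hochberg over 14199 genes), 4 higher and 2 lower. Over all tested genes 64.5% were called, 33.5% higher and 30.9% lower, so the share of plexins called was close to that of any genes. The groups did not overlap for 6 of the 9 plexins, and for 68.1% of all tested genes. In bulk RNA, fewer cells that express a gene and less RNA per cell cannot be told apart. CPM values rest on TMM-scaled library sizes.

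Plxnb2 (Entrez 140570, chr15:89155546-89182018 in GRCm38.p6) stood at 360, 381 and 356 CPM in the R783H libraries A, B and C, and at 219, 223 and 219 CPM in the WT libraries. Every R783H library was thus above every WT library, by more than the spread within either group. The difference was 1.66-fold, a log2 fold change of 0.73 (SE 0.04, 95% confidence interval 0.64 to 0.83) (adjusted p 1.75e-07, edgeR's quasi-likelihood test). It was higher than in 88.7% of tested genes, and 15.1% of tested genes were called at least 1.5-fold higher. The values rest on 4420 to 10825 counts a library. No other annotated gene shares its exons, and its transcript (6497 nt, 38 exons) has a coding part of 5526 nt and a 3′ UTR of 732 nt, the shortest of the tested plexins.

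Plxna1 (Entrez 18844, chr6:89316313-89362613), the receptor of class 3 semaphorins with Nrp1 or Nrp2, had a nearly equal count. It stood at 350, 358 and 356 CPM in R783H A, B and C and at 224, 226 and 227 CPM in WT, again without overlap. Its log2 fold change reached 0.65 (SE 0.04, 95% confidence interval 0.57 to 0.74; adjusted p 1.93e-07, edgeR's quasi-likelihood test), or 1.57-fold. Its 3′ UTR is 3062 nt, and a relation of UTR length to the changes was not tested. Exons of Plxna1 share 970 nt with the antisense gene Gm26811, and the sources used here do not say whether counting used strand, so reads of both cannot be told apart there.

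Plxna3 (Entrez 18846, chrX:74328290-74344689), which serves Sema3f signalling together with Plxna4 and Nrp2 in neurons, had 19.4, 17.7 and 18.7 CPM in R783H and 11.7, 11.6 and 10.9 CPM in WT. The groups were apart, and the log2 fold change of 0.71 (SE 0.07, 95% confidence interval 0.55 to 0.87) was close to those of Plxnb2 and Plxna1 (adjusted p 8.64e-06, edgeR's quasi-likelihood test). Plxna2 (Entrez 18845, chr1:194619791-194816869), a receptor of class 6 semaphorins, had far lower levels, at 4.52, 4.19 and 4.19 CPM in R783H and 3.47, 3.63 and 2.44 CPM in WT. WT C was low, and the groups did not overlap. Its log2 fold change was 0.43 (SE 0.15; adjusted p 0.0266, edgeR's quasi-likelihood test). Without WT C it was 0.27 (adjusted p 0.108), and without R783H A the adjusted p was 0.0831 (edgeR's quasi-likelihood test), so the call on Plxna2 rests on single libraries.

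Plxnd1 (Entrez 67784, chr6:115954811-115995339), the Sema3e receptor known from blood vessels, went the other way. It had 2.06, 2.01 and 2.06 CPM in R783H against 2.57, 2.98 and 3.00 in WT, without overlap and at 52 to 73 counts a library. Its log2 fold change reached -0.48 (SE 0.14, 95% confidence interval -0.80 to -0.17; adjusted p 0.0117, edgeR's quasi-likelihood test). With DESeq2 the adjusted p was 0.0519. Plxnb1 (Entrez 235611, chr9:109093849-109119915), the Sema4d receptor and the closest well-counted relative of Plxnb2, had 20.7, 22.3 and 20.9 CPM in R783H and 24.0, 26.1 and 22.9 CPM in WT. The groups were apart by a small margin, R783H B against WT C, and the log2 fold change was -0.19 (SE 0.07; adjusted p 0.0286, edgeR's quasi-likelihood test). Scaling by library size alone moved it to -0.11 (adjusted p 0.169), and it was not called without R783H A, R783H C, WT A or WT B, at adjusted p values of 0.0541 to 0.153 (edgeR's quasi-likelihood test). Without a correction for transcript length and GC content, the fall of Plxnb1 was thus small and depended on the scaling and on single libraries. With that correction, described below, its log2 fold change was -0.43 (adjusted p 1.11e-05, edgeR's quasi-likelihood test). Leaving out single libraries was not repeated with the correction. Plxnb1 shares 257 nt of exon with the antisense gene Gm7628.

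Plxna4 (Entrez 243743, chr6:32144543-32588192), which binds class 3 and class 6 semaphorins, had 0.965, 0.810 and 0.945 CPM in R783H and 1.14, 0.815 and 0.750 CPM in WT, with overlapping groups. Its log2 fold change of 0.02 had a 95% confidence interval of -0.51 to 0.55 (adjusted p 0.946, edgeR's quasi-likelihood test), an interval wider than the change of Plxnd1 in either direction. Plxnc1 (Entrez 54712, chr10:94790866-94945015) likewise overlapped, with 1.5, 1.97 and 1.65 CPM in R783H and 2.13, 1.30 and 1.36 in WT. Its interval ran from -0.38 to 0.60 around 0.11 (adjusted p 0.688, edgeR's quasi-likelihood test). Plxnb3 (Entrez 140571, chrX:73756556-73772510) had 7, 3 and 4 counts in R783H and 1, 1 and 6 in WT. It did not pass the filter, and a difference was not detectable at this depth.

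**Figure D2:**
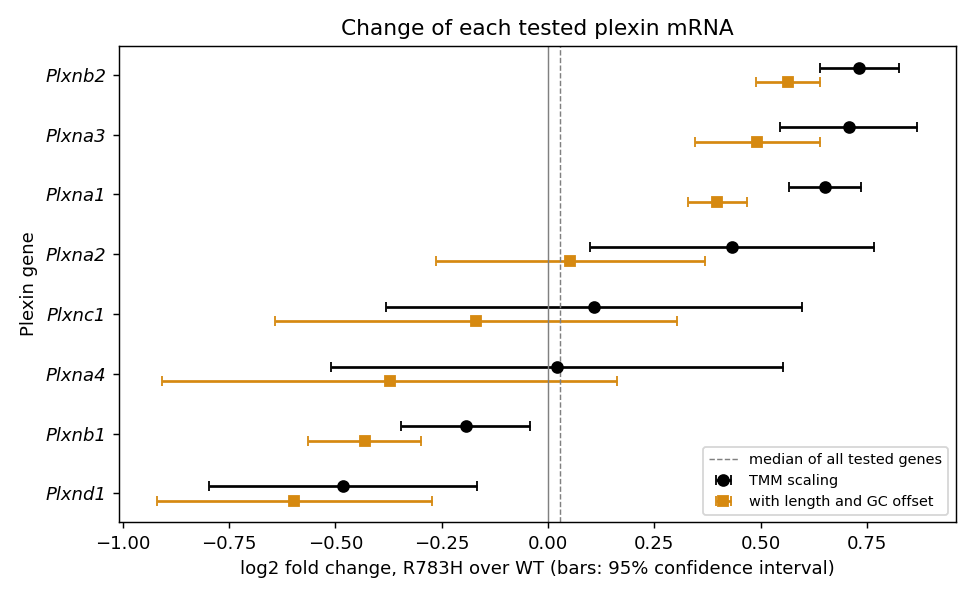
Log2 fold change of R783H over WT for the 8 tested plexins, with 95% confidence intervals. Black circles use TMM scaling alone and orange squares add the offset for transcript length and GC content. Plxnb2, Plxna3 and Plxna1 lie between 0.65 and 0.73 with TMM and stay above 0 with the offset, whereas Plxna2 moves to 0.05.

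Plexin mRNAs are long, and across all genes long transcripts tended to be higher in R783H. Among the 1743 tested genes with a transcript of at least 6030 nt, the length of the shortest plexin, 58.5% rose and 13.1% fell, and they had a median log2 fold change of 0.30 against 0.03 over all 14199. The median of the 8 tested plexins was 0.27. With an offset that removes the trend with length and GC content, Plxnb2 stood at 0.57 (SE 0.04), Plxna3 at 0.49 (SE 0.07) and Plxna1 at 0.40 (SE 0.03), with adjusted p values of 3.66e-10, 7.45e-06 and 1.09e-08 (edgeR's quasi-likelihood test). With the offset, 31.5% of 13067 genes were called higher and 37.5% lower. The 3 best-supported increases thus remained called, at sizes reduced by the offset. Plxna2, with a transcript of 11040 nt, went to 0.05 (adjusted p 0.769, edgeR's quasi-likelihood test) and was no longer called. The 2 decreases became larger with the offset, at -0.43 for Plxnb1 and -0.60 for Plxnd1. Their adjusted p values were 1.11e-05 and 0.00234 (edgeR's quasi-likelihood test). Plxna4, whose transcript of 12877 nt is the longest of the family, went to -0.37 without a call.

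The family as a whole had more mRNA in R783H, and nearly all of the gain came from Plxnb2 and Plxna1. The summed level of the 9 plexins was 100.4, 104.5 and 100.3 CPM per kb in the R783H libraries A, B and C, and 64.1, 65.0 and 64.0 CPM per kb in the WT libraries. This is 1.58-fold, with an exact two-sided permutation p of 0.1, the smallest that 3 against 3 libraries allow. Plxna1 and Plxnb2 together rose by 36.7 CPM per kb in their mean, and the other 7 by 0.696 in all. Class A and class B gained to a like degree, by 1.57-fold and 1.60-fold. Plxnb2 made up 55.2%, 56.2% and 54.6% of the summed level in R783H and 52.6%, 52.8% and 52.6% in WT, a small shift without overlap (exact two-sided permutation p 0.1). The share of Plxna1 was 38.6% ± 0.664 in R783H and 38.9% ± 0.452 in WT (SD, n = 3 each; exact two-sided permutation p 0.7). Within class B the balance moved: Plxnb2 exceeded Plxnb1 by 11.4-fold to 12.7-fold in WT and by 22.7-fold to 23.1-fold in R783H (exact two-sided permutation p 0.1). The ratio of Plxnb2 to Plxna1 ran from 1.34 to 1.37 in WT and from 1.39 to 1.48 in R783H. These ranges did not overlap (exact two-sided permutation p 0.1). In these libraries the measured rise of Plxnb2 was thus slightly larger than that of Plxna1, but 3 against 3 libraries cannot give a p under 0.1. The sums, shares and ratios carry no length and GC offset. With that offset the log2 fold change was 0.57 for Plxnb2 and 0.40 for Plxna1.

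**Figure D3:**
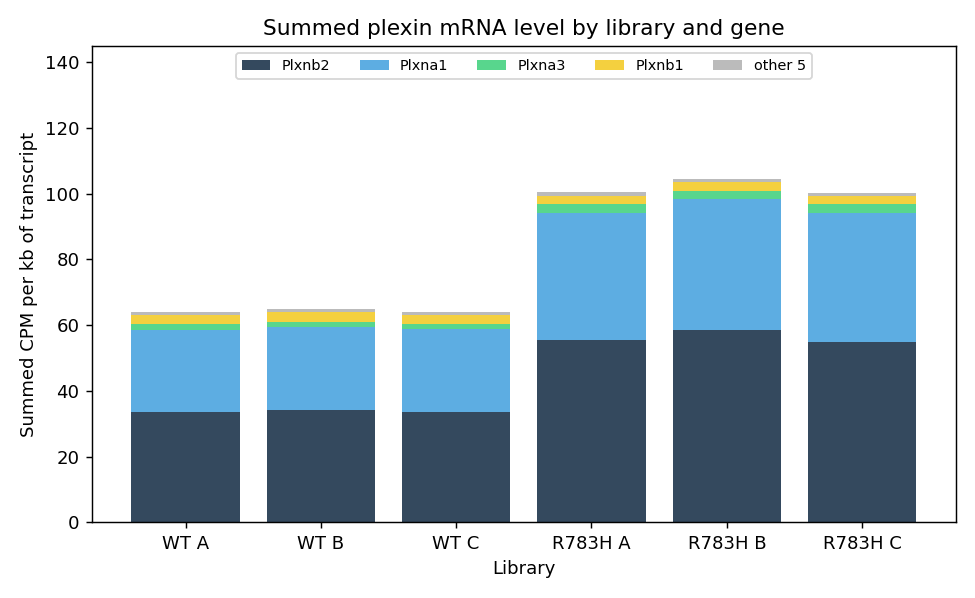
Summed plexin mRNA in each library, as CPM per kb of transcript, with a coloured segment for each of the 4 most abundant plexins and grey for the other 5. WT libraries reach 64.0 to 65.0 and R783H libraries 100.3 to 104.5, and the dark and light blue segments of Plxnb2 and Plxna1 hold over 90% of every bar.

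Ligands were measured in the same libraries. Of 20 semaphorins 16 were tested, and 8 rose and 3 fell, beside 33.5% higher and 30.9% lower over all tested genes. Their median log2 fold change was 0.20 against 0.03 over all tested genes. With the length and GC offset 7 rose and 3 fell. Sema3d, a secreted class 3 semaphorin, had 1.96, 2.01 and 2.73 CPM in R783H against 0.743, 0.979 and 0.703 CPM in WT (log2 fold change 1.45, SE 0.23). The transmembrane Sema6a, a ligand of Plxna2 and Plxna4, rose by 0.90 (SE 0.26) from 0.853 ± 0.0834 to 1.58 ± 0.453 CPM. Sema6a had just 18 to 62 counts a library and Sema3d 15 to 81. With the length and GC offset Sema6a stood at 0.63 (adjusted p 0.0335, edgeR's quasi-likelihood test). Sema5b rose by 0.89 (SE 0.07), with 22.2, 22.3 and 22.5 CPM in R783H and 12.1, 12.4 and 11.7 CPM in WT. Without the offset, adjusted p values of these 3 genes ran from 7.45e-07 to 0.00978 (edgeR's quasi-likelihood test), and the groups were apart for each.

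Known partners of single plexins were chosen from the list after their values were seen. Sema4d, the Plxnb1 ligand, averaged 37.7 ± 1.25 CPM in R783H and 33.7 ± 1.86 CPM in WT (log2 fold change 0.16, SE 0.06), and was called in just 9 of 17 alternatives. Sema4g, a described Plxnb2 ligand, rose from 7.72, 7.99 and 8.11 CPM in WT to 13.7, 12.3 and 12.6 CPM in R783H (log2 fold change 0.70, SE 0.08; adjusted p 2.27e-05, edgeR's quasi-likelihood test), without overlap. Sema4c, also described as a Plxnb2 ligand, stood at 1.67 ± 0.281 against 1.07 ± 0.476 CPM and was not called (adjusted p 0.0671, edgeR's quasi-likelihood test). Sema3f, the ligand of Plxna3 with Nrp2, fell from 2.18, 2.24 and 2.25 CPM in WT to 1.43, 1.20 and 1.25 CPM in R783H (log2 fold change -0.78, SE 0.17; adjusted p 0.00166, edgeR's quasi-likelihood test), also without overlap. Sema7a, the Plxnc1 ligand, fell from 3.93 ± 0.130 to 2.32 ± 0.403 CPM. Sema3e, the Plxnd1 ligand, had 10, 8 and 9 counts in R783H and 5, 11 and 14 in WT and was not tested.

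Both of the other described Plxnb2 ligands were higher in R783H. Grn, which encodes progranulin, had 372, 401 and 349 CPM in the R783H libraries and 207, 211 and 198 CPM in WT. These values are not per kb, so they do not rank Grn against Plxnb2. The groups were far apart, with a log2 fold change of 0.87 (SE 0.05; adjusted p 2.68e-07, edgeR's quasi-likelihood test). Its change and that of Plxnb2 were of the same order without the length and GC offset. With that offset Grn stood at 0.92 and Plxnb2 at 0.57. Ang, which encodes angiogenin, had 11, 19 and 14 counts in R783H and 4, 4 and 6 in WT. Its log2 fold change of 1.22 (SE 0.41; adjusted p 0.0212, edgeR's quasi-likelihood test) rests on these few counts, and 219 nt of its exons are shared with Rnase4. Grn shares 68 nt with Fam171a2 on the other strand.

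Among 9 co-receptors 6 were tested. Of these, 2 rose and 2 fell, with a median of -0.00492, beside 33.5% higher and 30.9% lower over all tested genes. With the length and GC offset 2 rose and 3 fell. Met, the receptor of hepatocyte growth factor that associates with class B plexins, rose from 4.41, 5.38 and 4.36 CPM in WT to 10.1, 9.51 and 12.0 CPM in R783H (log2 fold change 1.15, SE 0.12). L1cam, an adhesion molecule that partners with Nrp1 in axons, rose by 1.21 (SE 0.21) at 12 to 53 counts a library, and shares 100 nt of exon with Arhgap4. Nrp2, the neuropilin of Sema3f, fell from 50.7, 49.6 and 52.0 CPM in WT to 31.2, 29.6 and 31.3 CPM in R783H (log2 fold change -0.73, SE 0.05). Adjusted p values of these 3 genes ran from 6.72e-07 to 3.60e-04 (edgeR's quasi-likelihood test). Nrp2 thus went against Plxna1 and Plxna3, the receptors it serves, while Nrp1, at 0.261 and 0.368 CPM in R783H and WT, was not tested.

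On the cytoplasmic side, 6 of 10 small GTPases fell and 1 rose, with a median of -0.36, beside 30.9% lower and 33.5% higher over all tested genes. With the length and GC offset 7 fell and 2 rose. Without the offset Rac1, Rras and Rap1a were not called. With it Rac1 was called lower and Rras higher, and Rap1a was again not called. Rac1 shares 2309 nt of exon with Daglb on the other strand. Rnd1, which binds the cytoplasmic part of plexins, fell most, from 25.2, 24.4 and 22.7 CPM in WT to 8.05, 8.35 and 8.20 CPM in R783H (log2 fold change -1.55, SE 0.07). Rap1b and Rras2, members of the Ras-like group that plexins inactivate, fell by 0.52 and 0.50 on the log2 scale (SE 0.05 each). Of 7 exchange factors, GTPase-activating proteins and adaptors, 4 rose and 2 fell, with a median of 0.51, which was 0.24 with the offset. Arhgap35 and Sh3bp1 were the 2 that fell. Sh3bp1 shares 1758 nt of exon with Gm49510 on the same strand, so its count is uncertain. The difference between these 2 lists was not tested. Farp1, a FERM-domain exchange factor related to the plexin-A effector Farp2, rose from 10.2, 9.83 and 11.4 CPM to 24.5, 26.3 and 23.6 CPM (1.24, SE 0.08). Arhgef11 and Arhgef12, the RhoA exchange factors recruited by class B plexins, rose by 0.61 (SE 0.05) and 0.51 (SE 0.06). With the length and GC offset Arhgef12 stood at 0.13 and Arhgef11 at 0.38. Arhgef11 shares 991 nt of exon with Lrrc71, and Arhgef12 has near-identical stretches in other genes, so the counts of both are uncertain. Adjusted p values of these 6 genes ran from 5.58e-08 to 3.73e-05 (edgeR's quasi-likelihood test).

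Of 17 cytoskeletal effectors and kinases 16 were tested. Of these, 7 rose and 5 fell, with a median of 0.05, beside 33.5% higher and 30.9% lower over all tested genes. With the length and GC offset 5 rose and 6 fell, and the median turned to -0.06. Mical1, an oxidoreductase that acts on actin downstream of plexin A, rose by 0.69 (SE 0.07). Cfl1, the actin-severing cofilin, stood at 699 ± 49.6 CPM in R783H and 1086 ± 34.5 in WT (-0.64, SE 0.05), and Dpysl2, the collapsin response mediator Crmp2, at 1.92 ± 0.253 and 4.57 ± 0.412 (-1.25, SE 0.15). All 3 had groups without overlap. Mical1 shares 905 nt of exon with Smpd2 and Cfl1 468 nt with Snx32, and Cfl1 also has a near-identical stretch in Gm6180.

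Other guidance receptors were counted in the same way. Of 24 genes of the Robo, Dcc, Neo1, Unc5 and Eph families 13 were tested, 6 rose and 1 fell, with a median of 0.24, beside 33.5% higher and 30.9% lower over all tested genes. With the length and GC offset 5 rose and 2 fell. Robo1, a Slit receptor, had 71.4, 63.7 and 72.4 CPM in R783H and 31.0, 34.6 and 35.8 CPM in WT (1.03, SE 0.07). Neo1, a receptor of netrins and repulsive guidance molecules, had 168, 154 and 166 CPM against 86.7, 87.7 and 89.8 (0.89, SE 0.05). Robo4, known from endothelium, fell from 5.69 ± 0.723 to 1.94 ± 0.268 CPM (-1.55, SE 0.15). Among the 10 mRNAs described as Trim71 targets, Plxnb2 included, 7 rose and 3 fell. Their median was 0.49 against 0.03 over all tested genes. Rbl2, a pocket protein, rose by 0.76 (SE 0.09), Plxnb2 by 0.73, and Egr1, an early response factor, stood at -1.16 (SE 0.27). With the length and GC offset 6 of these 10 rose and 3 fell, with a median of 0.30 against -0.03 over all genes. An action of Trim71 on these mRNAs was not tested.

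**Figure D4:**
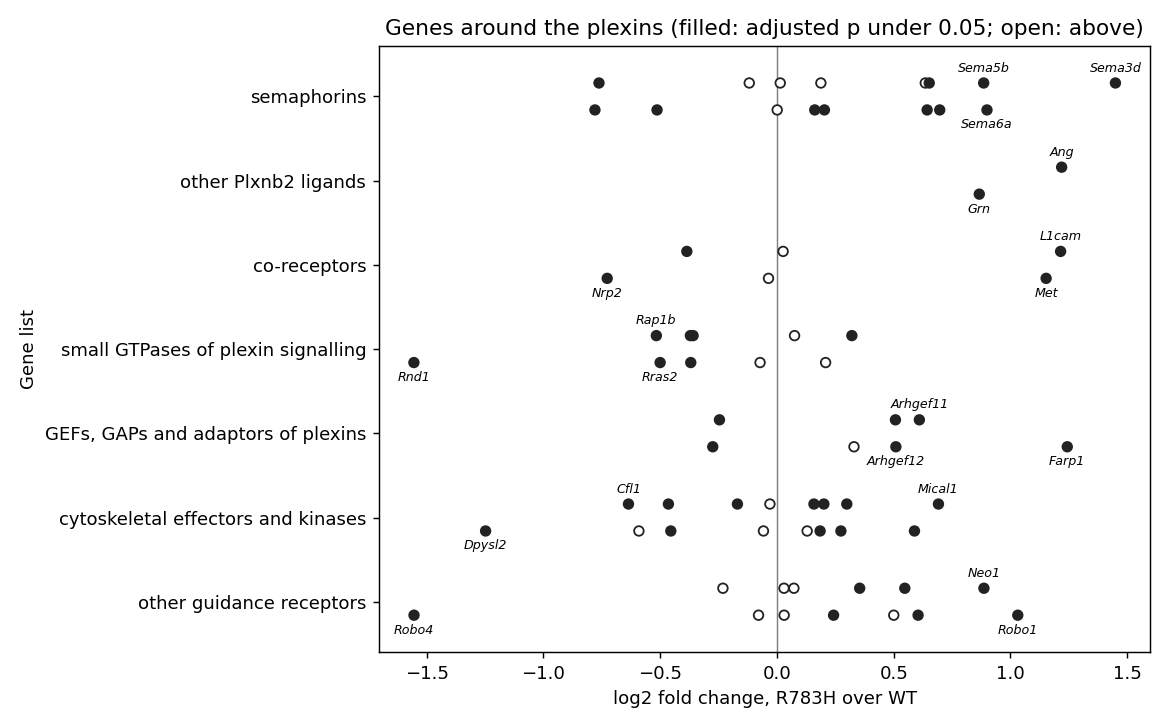
Log2 fold change of R783H over WT for tested genes of 7 lists around the plexins, with a point for each gene. Filled points have an adjusted p under 0.05 and open points do not. Sema3d, Grn, Met and Farp1 lie to the right of 0, and Rnd1, Nrp2, Dpysl2 and Robo4 to the left.

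The genes most like Plxnb2 across the 6 libraries were sought by the Euclidean distance of mean-centred log2 CPM among 4642 other genes with a mean of at least 50 CPM. Spg7, Cstb, Slc2a3 and Cox7a2l were among the 5 nearest, at distances of 0.0524 to 0.0632. Their log2 fold changes lay between 0.71 and 0.76, which follows from choosing genes by their distance to Plxnb2 over the same libraries. Plxna1 was the 39th nearest, at a distance of 0.121.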

How the data were processed

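The authors deposited 1 table of read counts per gene from poly(A)-selected RNA, in 6 libraries. Totals differ between libraries and all values are whole, so they were taken as raw counts. The submitters' processing notes name CASAVA 1.4, HISAT2, SAMtools and the build mm10. Which program counted reads, on which annotation and whether by strand is not given in the sources used here. Symbols and coordinates came from RefSeq for GRCm38.p6, the assembly of mm10, which matched 25275 of 27179 identifiers, and transcript lengths, exons and GC content from GENCODE M21. Exon overlaps were read there, and near-identical stretches (at least 98% over 100 nt) were searched with BLAST 2.17.0.

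Genes were kept with filterByExpr (minimum count 10, minimum total 15), scaled with TMM and tested with edgeR 4.0.16 (R 4.3.3) with group as the single term and Benjamini-Hochberg adjustment. The fit was tested on simulated data. A gene is called at an adjusted p under 0.05. Alternatives used DESeq2 1.42.0, limma 3.58.1, other scalings and filters, equal depth, a length and GC offset (splines, 5 degrees of freedom each) and each library left out. A floor of 3 counts is 0.0998 to 0.149 CPM on the TMM scale, counting error only. Deviations of libraries with the same letter correlated at -0.07 to 0.09, so the letters were not taken as pairs.

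The text names all plexins, Trim71, in each list the 3 most changed called genes with at least 1 CPM in the higher group, both other Plxnb2 ligands and the 5 genes nearest to Plxnb2, of which 1 is not reported here. Outside this rule it names Sema4d, Sema4g, Sema4c, Sema3f, Sema7a, Sema3e, Nrp1 and the GTPases and adaptors given without values, chosen after their values were seen. The 8 pathway lists and 5 marker lists came from general knowledge. The members and lists were chosen with earlier results of these data known. Protein sequences were not used here.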

Additional observations from a re-analysis of the deposited data

How the results depend on the processing

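Plxnb2, Plxna1 and Plxna3 kept their direction and call in all 17 alternative fits, with log2 fold changes of 0.56 to 0.81, 0.40 to 0.73 and 0.49 to 0.79. Plxnd1 kept its call in 16, Plxnb1 in 12 and Plxna2 in 11. The number of plexins called ran from 4 (DESeq2, and without R783H A) to 6, and with each library left out from 4 to 6. The fit with a replicate block, the letters as a term, called 6 plexins and 9260 genes against 9152 and changed no call on a plexin. Scaling by library size alone raised the share of higher calls over all genes from 52.0% to 61.2% and the median of all genes from 0.03 to 0.11.

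Among the plexins the sign changed for Plxna4 and Plxnc1, neither of them called in any of the 17 fits, and Trim71, not called in the reported fit, turned to a call in the other direction with the length and GC offset. Plxna4 stood at -0.000440 with RLE factors, -0.00630 with DESeq2, -0.00238 at equal depth, -0.37 with the length and GC offset and -0.38 with the replicate block and that offset, and ran from -0.090 to 0.21 with each library left out. Plxnc1 stood at -0.067 at equal depth, -0.17 with the offset and -0.17 with the replicate block and the offset, and ran from -0.028 to 0.35 with each library left out. Trim71 stood at -0.27 with the offset and -0.27 with the replicate block and the offset, both called, and ran from -0.022 to 0.13 with each library left out. Of the 2 other Plxnb2 ligands, called in number 2, just 1 was called at equal depth, with DESeq2 and where every library had to reach 10 counts, and 1 to 2 with each library left out; Grn was called in all 17 alternatives and Ang in 10 of the 13 that tested it. The causes of these moves were not tested, apart from fewer genes or samples where the setting removes them.

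The Plxnb2 share of the summed level was 2.68 percentage points higher in R783H, 2.55 with coding length, 2.63 without division by length and 2.27 to 3.04 with each library left out. Depth limits Plxnb3, Plxna4 and Ang, which had under 30 counts in any library.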
